A study of Saccharomyces cerevisiae with 10 samples.

Results

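The mRNA levels of 10 iron uptake genes of Saccharomyces cerevisiae were followed while a pool of diploid yeast strains passed from dextrose to ethanol as the carbon source. The genes were FET3, FTR1, FIT1, FIT2, FIT3, ARN1, ARN2, FRE1, FRE2 and FET4, found by their symbols in the annotation of the array, and they were 10 of the 5449 genes measured. Each of the 10 had 1 probe set, and 0 of these probe sets were marked as shared with other sequences. The pool consisted of barcoded protein-complementation assay strains in the S288c background, each of which carried a pair of tagged proteins whose binding restores growth in methotrexate. Cells were grown in minimal medium of yeast nitrogen base and ammonium sulfate with dextrose, then moved to the same medium with ethanol and methotrexate, and total RNA was taken at the transfer (0 h), early (0.5 and 1 h) and late (4 and 12 h) in ethanol. Every time had 2 arrays, labelled as biological replicates 1 and 2. All groups shared the strains, the basal medium and, by the labels, the ethanol and methotrexate treatment, and differed in the time after transfer. The study describes the dextrose pre-culture both as selective and as non-selective, so that the change to ethanol and the start of methotrexate cannot be told apart in a comparison with 0 h. Nothing in the sources used here says that the 2 arrays of a time came from separately grown cultures, so p-values measure the spread between arrays, which may be technical. In a pooled culture, a change in the share of some strains and a change within every cell cannot be told apart either.

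Yeast takes up iron by several routes that work side by side. Cell surface ferric reductases of the Fre family convert ferric to ferrous iron, and the multicopper oxidase Fet3 then oxidises it again while passing it to the permease Ftr1, its partner in the high affinity complex. Fet4 is a low affinity transporter of ferrous iron and of other metals such as copper and zinc. Iron bound to siderophores, small chelators made by other microbes, enters through the Arn transporters, and the Fit mannoproteins hold siderophore iron in the cell wall. The transcription factor Aft1 and its relative Aft2 turn on the high affinity and siderophore routes when iron is scarce. Ethanol can only be used by respiration, whose enzymes carry iron in haem and iron-sulphur clusters.

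The values were intensities of robust multiarray analysis (RMA), in which background is removed and arrays are brought to a common distribution, so that a shift common to all mRNAs of a cell is lost. They ran from 1.90 to 13817 over all probe sets, with array medians of 316 to 351. Replicate arrays had r of 0.977 to 0.985 across genes on the log2 scale. In these values 14 haploid-specific genes, which diploid cells repress, were measured as a check of the strain type. Between 7 and 10 of the 14 lay among the dimmest 10% of all genes, with 7 at 0 h and 10 at 12 h, and their summed intensity was 1416 to 1611 at 0 h and 608 to 688 at 12 h. The count was also 7 at 0.5 and 1 h and was 8 at 4 h. The check was thus met only in part at every time. The brightest of the 14 were STE6 and STE2, which at 0 h lay above 51.2% and 41.4% of all genes, and their part in the results was not tested.

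Over the whole course the 10 genes did not move as a block. FIT2 rose within 0.5 h and had returned by 4 h, FET4 fell at every time, FRE2, ARN2 and FIT1 were lower at 4 and 12 h, and FET3 and FRE1 rose between 4 and 12 h. The mean log2 change of every member was negative at 4 h against 0 h, from −0.01 (FIT2) to −2.97 (FET4). From 1 to 4 h it was also negative for every member, from −0.12 (FTR1) to −2.97 (FIT2). No test was made of this shared sign. At 0.5 h against 0 h, 1 member was called higher and 1 lower at an adjusted p under 0.05 in a limma fit across all genes, while 62.9% of all genes were called (30.1% higher and 32.7% lower). At 1 h the members again gave 1 higher and 1 lower, beside 62.7% of all genes, 29.3% higher and 33.4% lower. At 4 h none of the 10 was called higher and 4 were called lower, beside 42.6% of all genes, 19.4% higher and 23.2% lower. At 12 h 0 members were called higher and 4 lower, against a background of 43.4% called, 21.4% higher and 22% lower. The members' median log2 change was −0.24, −0.26, −1.13 and −0.93 at 0.5, 1, 4 and 12 h, and that of all genes −0.05, −0.06, −0.09 and −0.05. These 4 comparisons share their 0 h arrays, and the medians over 10 genes are given as a description. At 4 h 7 members had both arrays below both 0 h arrays, which 42.2% of all genes also showed, and 0 lay above, as did 32.7% of all genes. At 12 h 5 members lay below and 2 above without overlap, beside 36.7% and 32.7% of all genes.

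**Figure D1:**
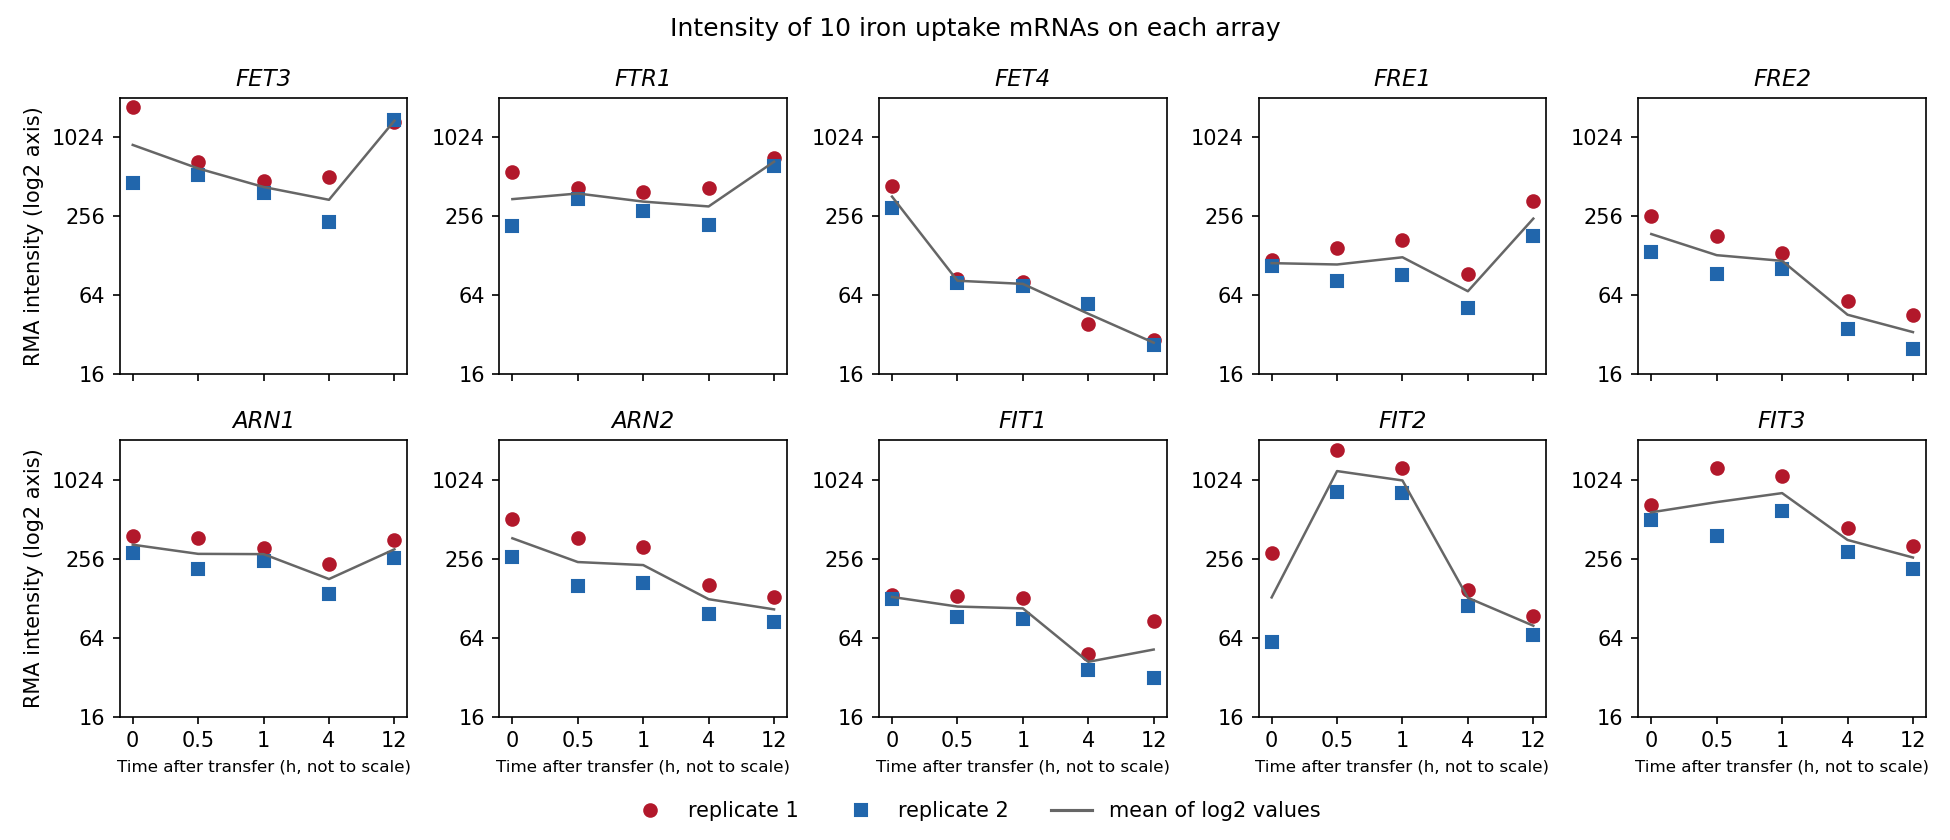
Each panel plots 1 gene, with hours after transfer on the x axis as evenly spaced times and RMA intensity on a log2 axis, a point for each array and a line through the means. FIT2 stands high at 0.5 and 1 h only, FET4 is lower at every later time than at 0 h, and the replicate 1 points lie above those of replicate 2 in most panels.

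FET4, the low affinity transporter, gave the clearest change. Its intensity was 440 and 299 at 0 h, 85.6 and 80.2 at 0.5 h, 81.3 and 75.6 at 1 h, 39.1 and 55.1 at 4 h and 29.2 and 26.7 at 12 h. Both arrays of every later time lay below both 0 h arrays, and the 12 h arrays lay below those of all other times. FET4 fell by 2.13, 2.21, 2.97 and 3.70 on the log2 scale at 0.5, 1, 4 and 12 h (SE 0.22, n = 2 arrays per time), which is 4.38-, 4.63- and 7.82-fold lower at the first 3 of these times. The limma adjusted p was 4.22e-05, 3.79e-05, 1.66e-05 and 5.06e-06. All 4 calls held when any 1 array was left out. At 0 h the gene lay above 53.2% of all genes and at 12 h above 6.28%, so that its last values were near the dim end of the array.

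FET3 and FTR1, which encode the oxidase and permease of the high affinity complex, had their highest mean log2 levels at 12 h. FET3 had 1742 and 463 at 0 h, 663 and 533 at 0.5 h, 474 and 389 at 1 h, 510 and 231 at 4 h and 1351 and 1399 at 12 h. The 0 h arrays stood far apart, with both 0.5 h and both 12 h arrays between them, and the replicate 2 arrays of 1 and 4 h lay below both. No comparison of FET3 with 0 h was called. Its log2 changes from 0 h were −0.60, −1.07, −1.39 and 0.61 (SE 0.54, limma adjusted p = 0.362, 0.113, 0.0654 and 0.391). Between 4 and 12 h it rose by 2.00 (adjusted p = 0.0446). The 0 h pair decided the direction from 0 to 12 h, which was 1.57 without replicate 1 (adjusted p = 0.0194) and −0.34 without replicate 2 (adjusted p = 0.567). Without 0 h replicate 2, FET3 was called lower at 0.5, 1 and 4 h, with −1.55, −2.02 and −2.34. The rise from 4 to 12 h lost its call without any of 7 single arrays, of which 4 h replicate 2 moved the value most, to 1.43 (adjusted p = 0.255), and under quantile normalization (1.96, adjusted p = 0.0533).

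FTR1 shared with FET3 the highest mean level at 12 h, at a smaller range, but not the lower means before it. Its log2 changes from 0 h were 0.14, −0.06 and −0.19 at 0.5, 1 and 4 h, beside −0.60, −1.07 and −1.39 for FET3. The arrays gave 561 and 215 at 0 h, 422 and 348 at 0.5 h, 392 and 282 at 1 h, 420 and 222 at 4 h and 716 and 626 at 12 h. The 12 h pair lay above all other arrays, and the 0 h pair again spanned the other 3 times. No FTR1 comparison was called: the change from 0 to 12 h was 0.95 (SE 0.43, limma adjusted p = 0.104) and from 4 to 12 h 1.13 (adjusted p = 0.122). Without 0 h replicate 1 the former was 1.64 (adjusted p = 0.0112). Over the 10 arrays FET3 and FTR1 had r = 0.89 on the log2 scale, and 0.87 after each replicate series was centred on its own mean.

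Of the ferric reductase genes, FRE2 was lower at 4 and 12 h than at 0 h, and FRE1 rose between 4 and 12 h. FRE2 had 256 and 138 at 0 h, 182 and 92.7 at 0.5 h, 135 and 102 at 1 h, 58.3 and 35.7 at 4 h and 45.3 and 25.0 at 12 h. Both arrays at 4 and 12 h lay below every array of the first 3 times. FRE2 fell by 2.04 at 4 h and by 2.48 at 12 h (SE 0.43, limma adjusted p = 0.0048 and 0.00151), and both calls held without any 1 array. At 12 h it lay above 6.94% of all genes, near the dim end. The values at 0.5 and 1 h, −0.54 and −0.68, were not called.

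FRE1 had 118 and 108 at 0 h, 147 and 82.8 at 0.5 h, 170 and 92.2 at 1 h, 93.2 and 50.9 at 4 h and 336 and 181 at 12 h. The 12 h pair was the highest, with both arrays above all others, and the 4 h mean was the lowest. FRE1 rose by 1.84 from 4 to 12 h (limma adjusted p = 0.0227), while its change from 0 to 12 h, 1.13 (SE 0.42), missed the threshold (adjusted p = 0.0569). The rise from 4 h was not called without 4 h replicate 2 (1.40) or without 12 h replicate 1 (1.39), with adjusted p = 0.152 for each. The change from 0 h was called under several alternatives, among them quantile normalization (adjusted p = 0.0468) and a fit on the 4 arrays of these times alone (adjusted p = 0.0223). Whether the 12 h changes of FRE1 and FRE2 differ from each other was not tested.

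Of the siderophore transporter genes, ARN2 was called lower at 4 and 12 h, and ARN1 missed the threshold at all times. ARN2 had 512 and 261 at 0 h, 365 and 159 at 0.5 h, 315 and 166 at 1 h, 162 and 97.3 at 4 h and 131 and 84.3 at 12 h. The 4 and 12 h arrays all lay below both 0 h arrays, and those of 0.5 and 1 h overlapped them. ARN2 fell by 1.54 at 4 h and 1.80 at 12 h (SE 0.49, limma adjusted p = 0.0315 and 0.0156). Leaving out 0 h replicate 1 ended both calls (−1.06 with adjusted p = 0.191 and −1.32 with adjusted p = 0.111), as did leaving out replicate 2 of the later time (−1.17 at 4 h and −1.48 at 12 h).

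ARN1 had 378 and 283 at 0 h, 365 and 212 at 0.5 h, 310 and 247 at 1 h, 232 and 138 at 4 h and 354 and 257 at 12 h. Only the 4 h pair stood below both 0 h arrays. The change at 4 h was −0.87 (SE 0.33, limma adjusted p = 0.0584), and at 12 h −0.12 (adjusted p = 0.807). The 4 h value was called under several alternatives, among them quantile normalization (−0.85, adjusted p = 0.0465) and a fit with the dimmest 20% of genes left out (adjusted p = 0.0471). ARN1 and ARN2 lie on the same chromosome arm with 6 annotated genes between them in assembly R64.

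Among the genes of the cell wall mannoproteins, FIT2 had the largest rise of the 10 genes. FIT2 had 281 and 59.7 at 0 h, 1712 and 828 at 0.5 h, 1267 and 804 at 1 h, 149 and 111 at 4 h and 93.1 and 66.8 at 12 h. All 4 arrays of 0.5 and 1 h lay far above the other 6, and the arrays of 4 and 12 h lay between the 0 h arrays. FIT2 rose by 3.20 at 0.5 h and 2.96 at 1 h (SE 0.62, limma adjusted p = 0.00156 and 0.00249), or 9.18- and 7.79-fold. From 1 to 4 h it fell by 2.97 (adjusted p = 0.00881), or 7.84-fold, and at 4 and 12 h it stood at −0.01 and −0.72 from 0 h (adjusted p = 0.991 and 0.384). These 3 calls held without any 1 array, but the size of the rise depended on the 0 h pair. Without 0 h replicate 1 it was 4.32 at 0.5 h and 4.08 at 1 h, and without replicate 2 it was 2.08 and 1.84.

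FIT3 lies next to FIT2 in assembly R64, with 0 annotated genes between them. It had 656 and 508 at 0 h, 1261 and 378 at 0.5 h, 1101 and 594 at 1 h, 438 and 288 at 4 h and 321 and 212 at 12 h. The replicate 1 arrays of 0.5 and 1 h were its highest, while the replicate 2 array of 0.5 h fell below both 0 h arrays. No FIT3 comparison was called, with 0.26 at 0.5 h and 0.49 at 1 h (SE 0.52), −0.70 at 4 h (limma adjusted p = 0.303) and −1.15 at 12 h (adjusted p = 0.104). FIT2 and FIT3 had r = 0.77 over the 10 arrays, and the difference between their early changes was not tested.

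FIT1 was lower late. It had 135 and 127 at 0 h, 133 and 91.5 at 0.5 h, 129 and 88.9 at 1 h, 48.0 and 36.5 at 4 h and 85.9 and 31.4 at 12 h. All arrays of 4 and 12 h were below all those of the first 3 times. FIT1 fell by 1.64 at 4 h and by 1.33 at 12 h (SE 0.41, limma adjusted p = 0.0114 and 0.0267). The 4 h call was lost without 0 h replicate 1 (adjusted p = 0.0548) or 4 h replicate 2 (adjusted p = 0.068). The 12 h call was lost without either 0 h array, or without 12 h replicate 2, which left a change of −0.61 (adjusted p = 0.161), while without 12 h replicate 1 the change was −2.06. FIT1 lay above 20.1% of all genes at 0 h and 8.13% at 4 h, among the dimmer genes throughout.

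**Figure D2:**
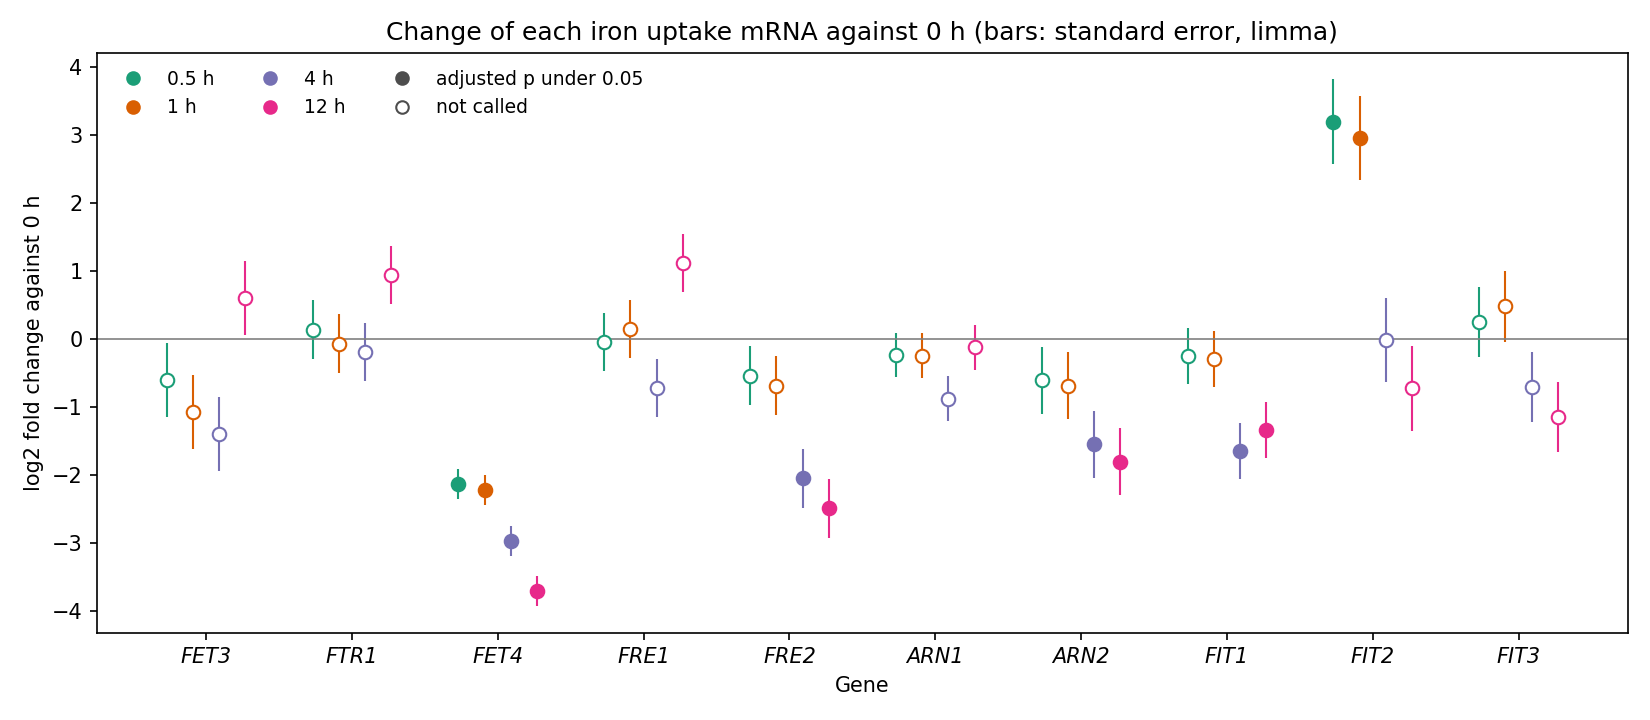
The log2 change of each gene from 0 h is plotted at 0.5, 1, 4 and 12 h, with bars of 1 SE from the limma fit and filled points where the adjusted p was under 0.05. The filled points are FIT2 above 0 at 0.5 and 1 h, FET4 below 0 at all 4 times, and FRE2, ARN2 and FIT1 below 0 at 4 and 12 h.

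The steps between sampled times set these courses in order. From 0.5 to 1 h, limma called 0 of the 10 genes and 0% of all genes, with 90 of 5449 genes and 0 members at an unadjusted p under 0.05. From 1 to 4 h, 4 members were called lower and 0 higher, beside 27.3% of all genes called, 14.5% higher and 12.8% lower. They were FIT2, FIT1 (−1.35, adjusted p = 0.0389), FRE2 (−1.36, adjusted p = 0.0436) and FET4 (−0.76, adjusted p = 0.034). The last 3 calls were each lost on leaving out any single array of 1 or 4 h, except that FET4 kept its call without 4 h replicate 2, and that of FIT1 was also lost without either 0 h array. In this step 7 members lay below without overlap and 0 above, beside 36.1% and 33.3% of all genes. From 4 to 12 h, 2 members, FET3 and FRE1, were called higher and 0 lower, beside 11.3% of all genes called, 6.83% higher and 4.5% lower. Under quantile normalization the split became 1 higher and 1 lower, since FET3 lost its call and FET4 (−0.74, adjusted p = 0.0429) gained one.

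The 2 arrays of a time differed in the same direction for nearly all of these genes. Replicate 1 was the higher array in 48 of the 50 pairs formed by 10 genes and 5 times, and the exceptions were FET3 at 12 h (a log2 difference of −0.05) and FET4 at 4 h (−0.50). Over the members the median log2 difference of replicate 1 from replicate 2 was 0.73, 0.80, 0.50, 0.72 and 0.54 in order of time, and over all genes 0.02, −0.02, 0.00, 0.00 and 0.14. The largest were FIT2 at 0 h (2.23), FET3 at 0 h (1.91), FIT3 at 0.5 h (1.74), FIT1 at 12 h (1.45) and FTR1 at 0 h (1.38). By the mean difference over the 5 times, 9 of the 10 members lay among the top 2% of all genes, and FET4, above 59.3% of all genes, did not. Subtracting the median of each array left 9 members in the top 2% and 47 of the 50 pairs with replicate 1 higher, and quantile normalization left 8 members and 48 pairs. This pattern was noticed in the data, and no test was made of it. The limma fit had no replicate term, so this offset enters its SE and can hide a change. Calls of a fit with such a term are named at the end.

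**Figure D3:**
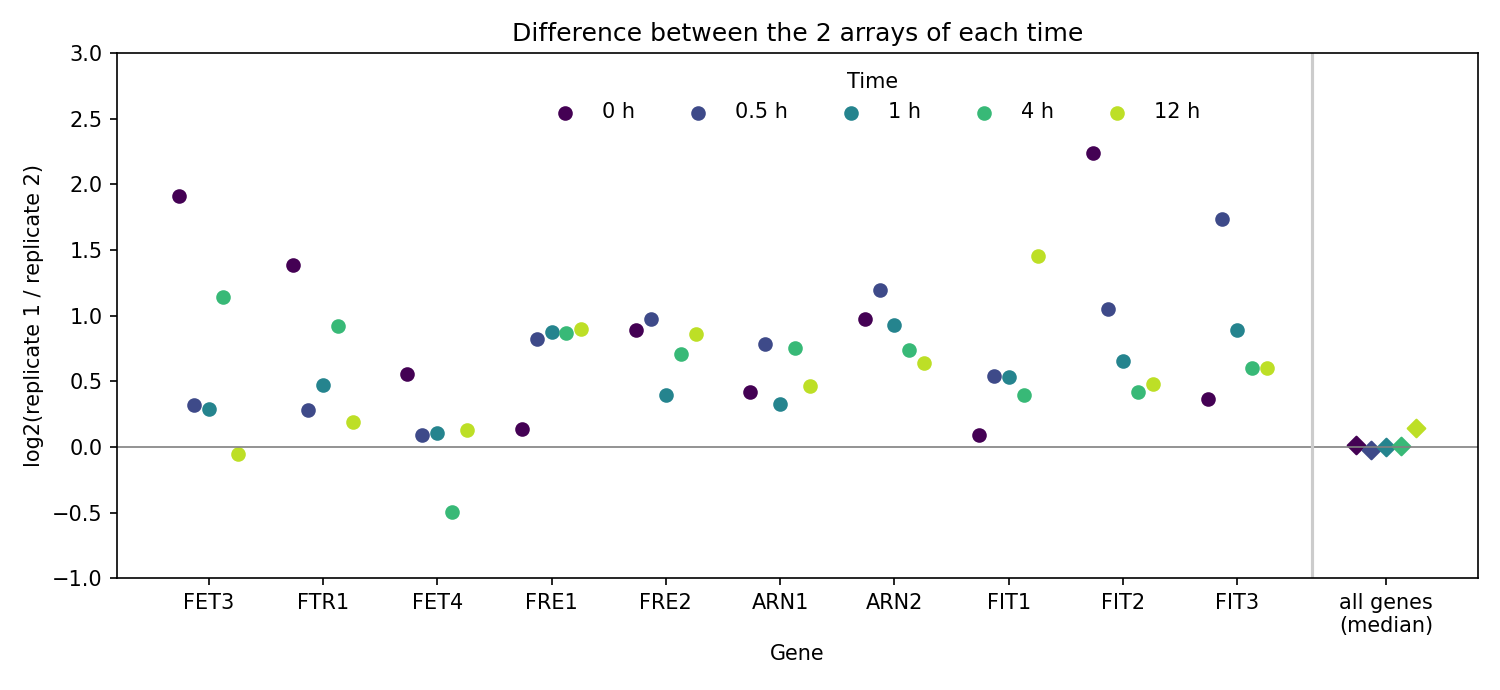
The y axis is the log2 ratio of the replicate 1 to the replicate 2 intensity, a point for each gene and time coloured by time, with the median over all genes at the right. Nearly all points of the 10 genes lie above 0, FIT2 and FET3 at 0 h highest, while the medians of all genes lie near 0.

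The same offset appeared in part of the wider iron genes. Of 26 other genes of iron acquisition and its regulators, 3 lay in the top 2% by this measure, TIS11, SIT1 and ENB1. Genes outside the naming rule, ENB1, CTR1 and TIR3 here, are named after their values were seen. Of 32 genes of iron-sulphur cluster assembly and iron sensing 0 did, of 12 measured copper genes 1 (CTR1), of 10 zinc and manganese transporters 0, of 14 hypoxic genes 1 (TIR3) and of the 14 haploid-specific genes 0. What accompanied the offset in the cultures was not tested.

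Across the 10 arrays the members formed pairs with like courses. These correlations are descriptions over 10 arrays that share the 5 times and the replicate offset. ARN2 and FRE2 had r = 0.96, FIT1 and FRE2 0.91, ARN2 and FET4 0.79 and FRE1 and FTR1 0.78. Of the 45 pairs, 23 had r of at least 0.5, and 18 after each replicate series was centred. Among 2871 genes whose time means spanned at least 1 on the log2 scale, the one most like FTR1 was FET3 (r = 0.89), followed by YML119W (0.87), RNH201 (0.85), HBN1 (0.83) and AIM20 (0.81). FET3 was most like AMN1 and FTR1 (both 0.89), then SPC25 (0.87), HPF1 and SCW11 (both 0.86). FRE1 was nearest to YML119W (0.98), YOL162W (0.97), AIM20 and RNH201 (both 0.92) and YDL211C (0.90), so that YML119W, AIM20 and RNH201 stood near both FTR1 and FRE1. FIT2 was nearest to YOR186W (0.98), PPE1 (0.97), LSB5, YGR204C-A and UPS3 (each 0.96), and FET4 to EEB1, EST3, YHR210C, HXT3 and MMF1 (each 0.99).

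Among the other genes of iron acquisition, HMX1, TIS11 and SIT1 had the largest early rises. Of the 26, 12 were called higher and 7 lower at 0.5 h, 11 and 7 at 1 h, 3 and 6 at 4 h and 3 and 4 at 12 h, with median log2 changes of 0.38, 0.33, −0.01 and −0.04. Of all genes, 30.1% were called higher and 32.7% lower at 0.5 h, 29.3% and 33.4% at 1 h, 19.4% and 23.2% at 4 h and 21.4% and 22% at 12 h, and the lists that follow are to be read against these shares, with no test made of any list. HMX1, the haem oxygenase that releases iron from haem, had 106 and 64.4 at 0 h and 873 and 770 at 1 h. It rose by 3.31 (limma adjusted p = 4.66e-05) and then fell by 2.38 from 1 to 4 h (adjusted p = 0.00215). TIS11, also called CTH2, encodes an mRNA-binding protein that directs the decay of mRNAs of iron-using proteins. It had 143 and 25.8 at 0 h and 676 and 252 at 0.5 h, without overlap, and rose by 2.77 (adjusted p = 0.00553), which was 4.00 without 0 h replicate 1 and 1.53 without replicate 2.

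SIT1, the transporter of the siderophore ferrioxamine B and a relative of ARN1 and ARN2, was called higher at all 4 times, though at 4 and 12 h the call rested on single arrays. It had 372 and 92.7 at 0 h, 1847 and 1283 at 0.5 h, 1353 and 905 at 1 h, 706 and 457 at 4 h and 770 and 779 at 12 h, with all later arrays above both of 0 h. It rose by 3.05 at 0.5 h (limma adjusted p = 0.000836) and stood 2.06 above 0 h at 12 h (adjusted p = 0.0123). At 4 h it was 1.61 above 0 h (adjusted p = 0.0367), a call lost in the fit on 4 arrays (adjusted p = 0.0827), without 0 h replicate 2 (0.61, adjusted p = 0.225) and without any 1 array of 4 or 12 h. Without 0 h replicate 2 the values at 0.5 and 12 h were 2.05 and 1.06, the latter with adjusted p = 0.0512, and the 12 h call was also lost without either 12 h array. FRE6, a vacuolar reductase gene, fell by 1.93 at 1 h (adjusted p = 1.43e-05). The regulator AFT1 was not called, with 0.00, −0.24, −0.56 and −0.58 at 0.5, 1, 4 and 12 h, and AFT2 was called lower at all 4 times, from −0.93 to −0.74, of which the 12 h call was lost without 0 h replicate 2 (−0.47, adjusted p = 0.0865).

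**Figure D4:**
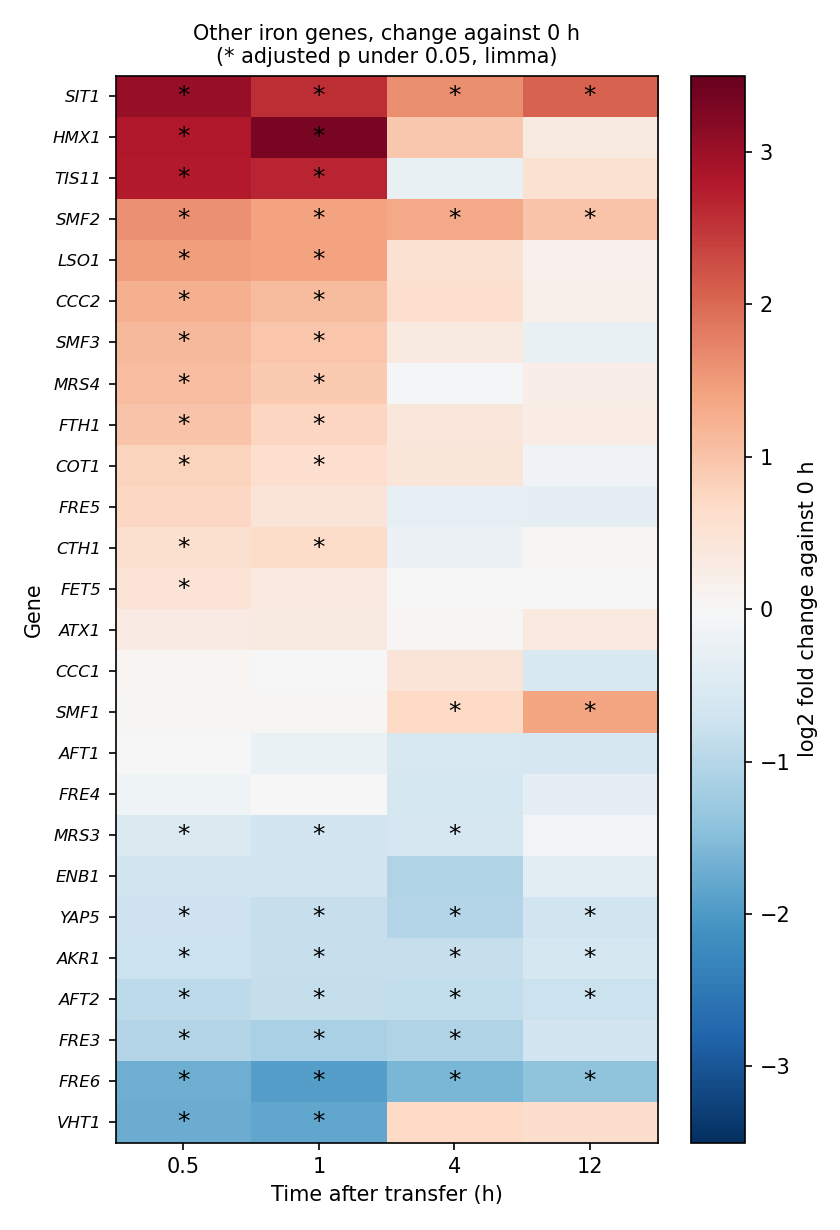
The heat map shows the log2 change from 0 h of the 26 other iron genes (rows, ordered by their change at 0.5 h) at 0.5, 1, 4 and 12 h (columns), red for higher and blue for lower, with a star where the limma adjusted p was under 0.05. SIT1, HMX1 and TIS11 are the deepest red at 0.5 and 1 h, of which SIT1 alone is starred at 12 h, and FRE6 is starred blue at all 4 times.

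Of 32 genes of iron-sulphur cluster assembly and iron sensing, 7 were called higher and 16 lower at 0.5 h, 7 and 14 at 1 h, 7 and 10 at 4 h and 6 and 13 at 12 h, with medians of −0.37, −0.45, −0.27 and −0.44. ISU2, a scaffold protein of cluster assembly, fell by 2.70 at 1 h (limma adjusted p = 2.52e-05). The genes of the cytosolic route TAH18, CFD1 and CIA2, fell by 2.42, 1.99 and 1.97 at 0.5, 0.5 and 1 h.

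Copper enters this pathway because Fet3 carries copper. Of 12 measured copper genes, 5 were called higher and 3 lower at 0.5 and at 1 h, 3 and 3 at 4 h and 2 and 4 at 12 h, with medians of 0.39, 0.20, 0.12 and −0.04, and the 8 called at 0.5 h stand beside 62.9% of all genes. COX17, a copper chaperone of cytochrome c oxidase, rose by 2.85 at 12 h (limma adjusted p = 8.53e-06), and CRS5, a metallothionein, by 1.80 at 1 h. MAC1, the activator of copper uptake genes and of FRE1, fell by 1.72 at 1 h, and PCA1 by 1.72 at 4 h. CTR1, the high affinity copper transporter and also chosen after its values were seen, had 99.6 and 94.1 at 0 h and 382 and 216 at 12 h, where FRE1 was also highest, and it was 1.57 higher at 12 h (adjusted p = 0.00522). The listed genes CTR2, CTR3 and FRE7, likewise named after their values were seen, showed no such rise. CTR3 had 23.6 and 20.4 at 0 h and 14.5 and 16.5 at 12 h. FRE7 had 10.0 and 6.92, then 6.65 and 9.35, and both genes were dim. The CTR2 arrays overlapped, with 604 and 386 at 0 h and 664 and 604 at 12 h. The part of copper in the FRE1 and FET3 values was not tested.

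For FET4, zinc and oxygen are the known other inputs, through the activator Zap1 and the hypoxic repressor Rox1. Of 10 zinc and manganese transport genes, 1 was called higher and 7 lower at 0.5 and at 1 h, 1 and 5 at 4 h and 2 and 4 at 12 h, with medians of −1.06, −1.17, −0.66 and −0.34, beside 32.7%, 33.4%, 23.2% and 22% of all genes called lower. ZAP1 had 541 and 612 at 0 h and 52.7 and 120 at 12 h and fell by 2.85 (limma adjusted p = 0.000129), with −2.26 without 12 h replicate 1 and −3.45 without 12 h replicate 2. The zinc transporter genes ZRT1 and ZRT2 fell by 2.76 at 1 h and 2.85 at 4 h, and IZH4 rose by 3.70 at 12 h. The rise of IZH4 started near the dim end, from 18.4 and 13.2 at 0 h. Of 14 hypoxic genes and regulators, 4 were called higher and 4 lower at 0.5 and at 12 h, 3 and 4 at 1 h and 2 and 4 at 4 h, and the 8 called at 0.5 h stand beside 62.9% of all genes. ROX1 had 258 and 454 at 0 h and 1913 and 1710 at 4 h and rose by 2.40 (adjusted p = 0.000169). TIR2, a hypoxic cell wall mannoprotein gene, fell by 2.64 at 12 h, to 21.5 and 31.8, near the dim end. OLE1, the fatty acid desaturase gene, rose by 2.43 at 12 h. CYC7, the hypoxic cytochrome c gene, rose by 1.52 at 0.5 h, a call lost without 0 h replicate 1 (adjusted p = 0.0725) or 0.5 h replicate 2 (adjusted p = 0.107). The part of ROX1 and ZAP1 in the fall of FET4 was not tested.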

How the data were processed

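The authors read the Affymetrix arrays with MAS 5.0 and made the deposited intensity values with RMA from BioConductor, on a linear scale (software versions and genome build: not given in the sources used here). In all, the deposited table holds 5716 probe sets, of which 5498 carry 1 symbol in the platform annotation and 218 none. The brightest probe set of each gene was kept, which left 5449 genes, and 12 symbols were updated from the gene table of assembly R64. Here log2 intensities of all 10 arrays were fitted by time with limma 3.58.1 in R 4.3.3 (lmFit and eBayes, 5 residual degrees of freedom), without a replicate term, and p-values were adjusted over 5449 genes by the method of Benjamini and Hochberg in each of 7 comparisons. Calls needed an adjusted p under 0.05. The fit was tested on simulated data with independent noise on each array, which did not hold the replicate offset seen here. Figures were drawn with matplotlib 3.10.9.

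The members and the gene lists were chosen with earlier results of these data known. Named were all members, up to 4 called genes of each list with the largest change from 0 h, and the 5 genes most correlated with FTR1, FET3, FIT2, FRE1 and FET4. AFT1, AFT2 and the markers STE6 and STE2 were named outside this rule, after their values were seen. Alternatives were other scalings, a pseudocount of 16, a filter on dim genes, the mean of probe sets, an intensity trend, fits on 4 arrays, a replicate block and leaving out each array. Promoter and protein sequences are not used here. The number of arrays limits the precision.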

Additional observations from a re-analysis of the deposited data

How the results depend on the processing

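The early rise of FIT2, the fall of FET4 from 0 h and the late fall of FRE2 held under all alternatives in which they were tested. All other member calls, except the fall of FIT2 from 1 to 4 h, were lost without at least 1 single array. Without 1 array in turn, the members called ranged from 2 to 3 at 0.5 h, 2 to 3 at 1 h, 2 to 6 at 4 h and 3 to 5 at 12 h against 0 h, and from 0 to 0, 1 to 5 and 0 to 3 in the steps from 0.5 to 1, 1 to 4 and 4 to 12 h. Of 700 single values, 609 kept their direction and side of the threshold, 31 lost a call, 21 gained one and 39 changed sign without a call. Calls over all genes at 4 h, from 1 to 4 h and from 4 to 12 h also moved without single arrays, as given below. The member ranges are thus not shown to be specific to the members. Leaving out the dimmest 20% of genes removed FIT1, FRE1, FRE2 and FET4. Of the 6 members tested, 1, 1, 2 and 1 were called at 0.5, 1, 4 and 12 h against 0 h. In each of the steps from 1 to 4 and 4 to 12 h, 1 was called. Over all genes kept, 2968, 2927, 2001 and 1950 were called at these times, and 1331 and 509 in these steps. The main fit called 3426, 3415, 2321 and 2364 of 5449 genes at the same times, and 1485 and 617 in the steps. The median over all genes moved by at most 0.04 under other scalings. Dim values limit FET4, FRE2 and FIT1 at the late times.

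Whether the replicate numbers pair the arrays was not settled, since the labels name no shared culture. The correlation of the replicate difference between times was positive in all 10 pairs of times, from 0.0267 to 0.565, and over 0.1 in 8. The main calls come from a fit without a replicate term, so a replicate offset enters their SE. The SE of ARN2 was 0.49 without and 0.16 with the block, of FRE2 0.43 and 0.16, and of FET4 0.22 and 0.22. A member not called is thus not shown to be unchanged. With the replicate number as a block, 4, 5, 7 and 7 members were called at 0.5, 1, 4 and 12 h against 0 h, 8 from 1 to 4 h and 5 from 4 to 12 h, and 0 from 0.5 to 1 h. Of all 5449 genes the block fit called 3736, 3750, 2725 and 2799 at 0.5, 1, 4 and 12 h against 0 h. It called 1995 from 1 to 4 h, 1066 from 4 to 12 h and 0 from 0.5 to 1 h. No member lost a call under the block. The calls gained were lower for ARN2 and FRE2 at 0.5 h, for these and FET3 at 1 h, for FET3, ARN1 and FRE1 at 4 h and for FIT3 at 12 h, and higher for FTR1 and FRE1 at 12 h. Between times they were lower for FIT3, ARN1, ARN2 and FRE1 from 1 to 4 h and for FET4 from 4 to 12 h, and higher for FTR1 and ARN1 from 4 to 12 h.

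Over all genes, 2321 calls at 4 h became 1383 without 4 h replicate 2. The 1485 calls from 1 to 4 h became 519 without 1 h replicate 2 and 479 without 4 h replicate 1. The 617 calls from 4 to 12 h became 1066 with the block, 353 in a fit on 4 arrays, and 400, 258 and 302 without 4 h replicate 1, 4 h replicate 2 and 12 h replicate 1. The cause was not tested.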
